A study of Homo sapiens with 4 samples.

Results

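PRMT1, PRMT6, WDR77, EWSR1 and SERBP1 are 5 genes of protein arginine methylation. They were picked by gene name from the authors' deposited comparison of shPRMT1 with shNTC cells, and each was selected on being in that table, whose genes all have an unadjusted p under 0.05. These 5 are among 858 listed genes, and their ratios and p-values are therefore given as a description, with no test. The cells were MiaPaca-2, an established human line from a pancreatic cancer, in 4 samples of total RNA. In 2 samples PRMT1 was targeted by a short hairpin RNA (shPRMT1), and 2 controls had a non-targeting hairpin (shNTC); all 4 came from the same line in the same culture medium. The labels name no further hairpin and no rescue, so effects of the hairpin on other transcripts cannot be told apart from the loss of PRMT1. The labels' extraction text describes chromatin immunoprecipitation, whereas molecule and library kit are those of RNA sequencing. Single-sample values were not analysed here: depth, expression level and the spread between replicates are unknown, no error stands beside a ratio, and the cell type could not be checked against its markers.

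Protein arginine methyltransferases (PRMTs) transfer methyl groups from S-adenosylmethionine to arginine side chains. Type I enzymes, PRMT1 foremost, make asymmetric dimethylarginine, and the type II enzyme PRMT5 makes the symmetric form together with its WD-repeat partner WDR77. Preferred sites are arginines flanked by glycines, in particular repeats of arginine-glycine-glycine (RGG boxes) in RNA-binding proteins. PRMT6 is a nuclear type I enzyme that methylates histone H3. EWSR1 is an RNA-binding protein of transcription and splicing, and SERBP1 is an RNA- and ribosome-binding protein.

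The members comprise 3 genes of the writing machinery and 2 RNA-binding proteins, chosen because they carry methylarginine. A difference between these kinds in RGG repeats is therefore largely set by the choice, and the counts are a description. In the GENCODE 29 transcript with the longest coding sequence, EWSR1 (chromosome 22, 660 codons) holds 22 RGG codon triplets, meaning an arginine codon followed by a pair of glycine codons. Only 2 of 19460 human coding genes, EWSR1 included, hold as many. SERBP1 (chromosome 1, 407 codons) holds 7, a number reached by 21 coding genes. PRMT1 (chromosome 19, 370 codons), PRMT6 (chromosome 1, 374 codons) and WDR77 (chromosome 1, 341 codons) hold none. PRMT6 is read from 1 coding exon, while PRMT1 has 11, WDR77 10, EWSR1 18 and SERBP1 8.

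The densest RGG stretch of EWSR1 is printed because it is the kind of sequence that PRMT1 is known to modify. Those of 3 other listed RNA-binding proteins, nucleolin (NCL), FXR1 and G3BP1, stand beside it for comparison. Each is coding sequence from GENCODE 29 on build GRCh38, 5′ to 3′ on the coding strand, from the first to the last RGG triplet of the densest 60 codons, with RGG triplets in capitals. EWSR1 lies at chr22:29299613-29299771 (plus strand, codons 570 to 622) and NCL at chr2:231455236-231455491 (minus strand, 2 coding exons). FXR1 lies at chr3:180968215-180968235 (plus strand) and G3BP1 at chr5:151803993-151804037 (plus strand).
EWSR1: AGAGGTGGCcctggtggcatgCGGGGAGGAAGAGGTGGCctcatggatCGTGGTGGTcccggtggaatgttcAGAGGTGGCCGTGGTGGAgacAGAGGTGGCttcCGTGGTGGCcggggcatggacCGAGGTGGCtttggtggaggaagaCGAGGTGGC
NCL: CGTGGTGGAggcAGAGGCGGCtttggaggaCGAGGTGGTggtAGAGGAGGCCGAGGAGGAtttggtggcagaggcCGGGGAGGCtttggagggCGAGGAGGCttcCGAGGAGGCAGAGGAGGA
FXR1: CGTGGTGGAccaCGTGGTGGC
G3BP1: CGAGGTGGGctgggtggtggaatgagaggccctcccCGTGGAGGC
The EWSR1 stretch carries 10 of the gene's 22 triplets in 53 codons of a single exon. In NCL 9 of 10 triplets fall in 41 codons, whereas FXR1 and G3BP1 hold 2 each.

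**Figure D1:**
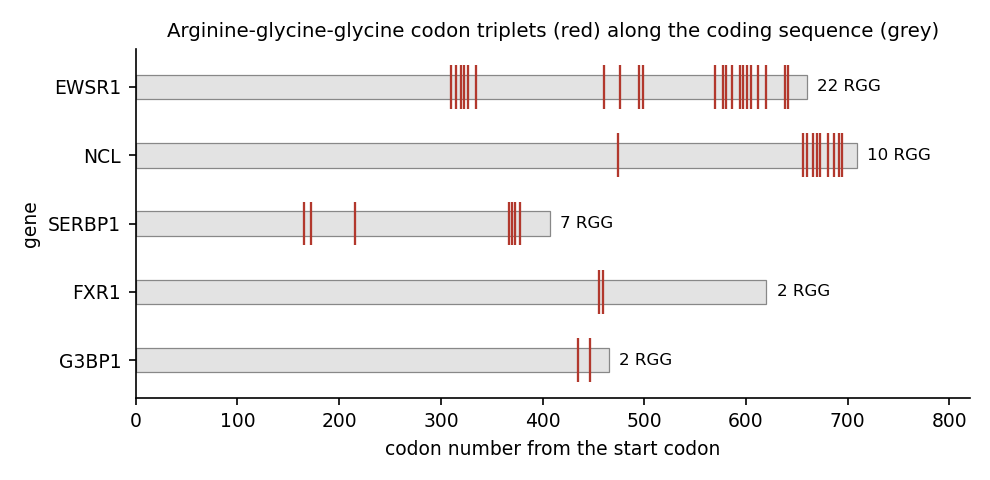
Position of each RGG codon triplet (red line) along the coding sequence (grey bar, codons from the start codon on the horizontal axis) of 5 listed RNA-binding genes. EWSR1 has 22 triplets in groups between codons 310 and 641, those of SERBP1 lie between codons 165 and 378, and 9 of the 10 in NCL lie near its end.

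The enzyme targeted by the hairpin had the lowest ratio of the members. PRMT1 (ENSG00000126457.16) had a value of 0.356 in the ratio column of the authors' deposited table, a log2 ratio of −1.49 (p = 0.0156, adjusted p = 0.411). The numerator of the ratios is not named, and shPRMT1 was taken as the numerator because PRMT1 is below 1; its direction is thus set by the reading and is no check of the sample labels. Under the opposite reading all directions given here turn around. By size, PRMT1 ranked 21 of 858 in the authors' deposited table, and 11 genes had a lower ratio. Its p was less exceptional, since 285 listed genes, 33.2% of the authors' deposited table, had a smaller one. The coding genes nearest to it in log2 ratio were the eye and pancreas transcription factor PAX6 (−1.54) below it and FAM57A (−1.32) above it in the authors' deposited table. This likeness rests on 1 comparison and says only that the sizes are similar.

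PRMT6, the other listed PRMT, stood at 0.612 in the authors' deposited table, a log2 ratio of −0.71 (p = 0.0326, adjusted p = 0.432). Its ratio was 1.72 times that of PRMT1 in the authors' deposited table. There were 47 genes below PRMT6 in the authors' deposited table. The nearest coding genes in log2 ratio were EME2 (−0.72) below PRMT6 and the polyamine-acetylating enzyme SAT1 (−0.70) above it in the authors' deposited table. Both listed PRMTs were on the lower side, PRMT1 by the reading chosen. A shift of all log2 ratios by 0.1 is too small to change the side of either. The other 7 family members, PRMT2, PRMT3, CARM1, PRMT5, PRMT7, PRMT8 and PRMT9, are absent from the authors' deposited table by symbol and by Ensembl identifier. Absence means that p was at least 0.05 or that the gene was not tested, which cannot be told apart; for PRMT5, the partner of WDR77, no ratio is therefore known.

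The family's 2 of 9 listed genes (22.2%) include PRMT1, the target of the hairpin. From its adjusted p-values, the authors' deposited table rests on 7640 tested genes, of which 11.2% are listed, 6.56% on the lower side and 4.67% on the higher. Of the 5 members, 4 were on the lower side and 1 on the higher, counts that the choice of members fixes. At an adjusted p under 0.05 the authors' deposited table holds 1 gene (0.0131% of those tested) and none of the members, against 5 members at an unadjusted p under 0.05; the test behind these p-values is not given in the sources used here. Adjusted p-values of the members ran from 0.364 to 0.439 in the authors' deposited table.

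WDR77, the WD-repeat subunit that presents substrates to PRMT5, had the smallest p of the members. It stood at 0.830 in the authors' deposited table, with a log2 ratio of −0.27 (p = 0.00553, adjusted p = 0.364). It was the 1 member with p under 0.01, a threshold passed by 2.50% of the genes tested in the authors' deposited table. Its size was ordinary: 47.6% of listed genes had a smaller absolute log2 ratio in the authors' deposited table. The coding genes nearest to WDR77 in log2 ratio were the ubiquitin ligase gene TRIM41 (−0.27) below and TMEM167A (−0.27) above in the authors' deposited table. PRMT1 was the 1 member with an absolute log2 ratio of at least 1. Of the genes tested, 0.759% had both this size and p under 0.05 in the authors' deposited table. The sizes of tested genes with a larger p are unknown.

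**Figure D2:**
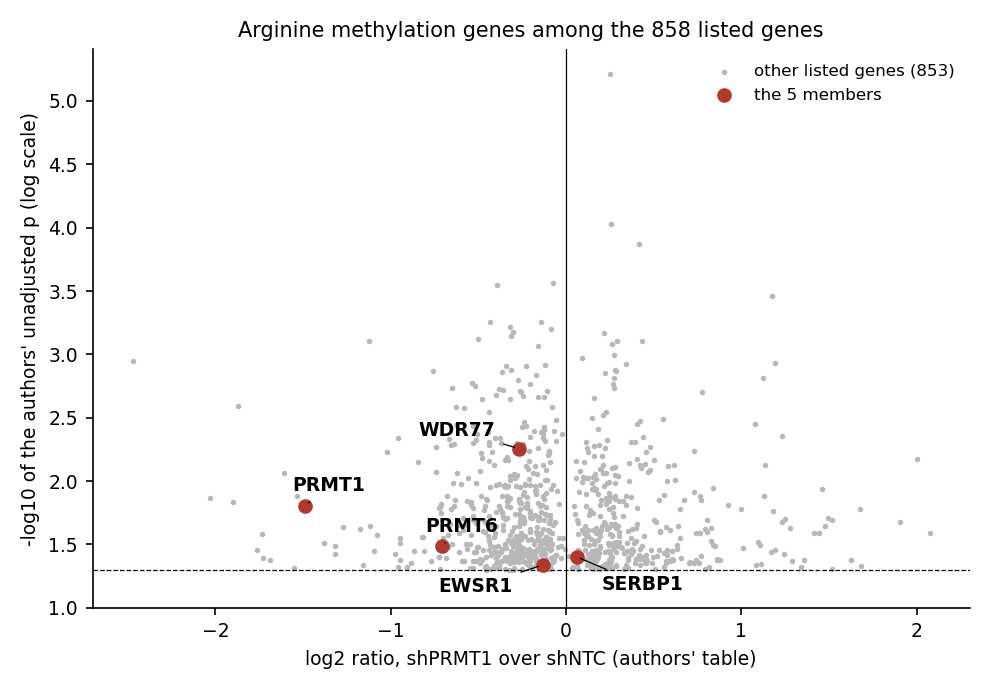
Log2 ratio of shPRMT1 over shNTC (horizontal axis) against −log10 of the authors' unadjusted p (vertical axis) for the 858 listed genes, with the 5 members in red; the dashed line marks p = 0.05, the limit of the table. PRMT1 lies far to the left at −1.49, WDR77 is the highest member, and EWSR1 and SERBP1 lie close to the ratio of no difference.

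The start of WDR77 faces that of ATP5PB, which encodes a stalk subunit of mitochondrial ATP synthase and is named ATP5F1 in the table. In RefSeq the starts lie 208 bases apart on opposite strands, and both genes are listed on the lower side. ATP5F1 (ENSG00000116459.6) stood at 0.941 in the authors' deposited table, a log2 ratio of −0.09 (p = 0.0404, adjusted p = 0.432), a smaller difference than that of WDR77. Among the 671 listed genes with a RefSeq promoter entry, 3 head-to-head pairs with starts within 1000 bases had both genes listed, all with both on the lower side, where 58.4% of all genes listed in the authors' deposited table lie. The other pairs were APTX (−0.52) with DNAJA1 (−0.44), and TBCK (−0.34) with AIMP1 (−0.12), log2 ratios from the authors' deposited table. In GENCODE 29 the WDR77 and ATP5PB loci overlap on opposite strands. Whether the authors' counting used strand is not given in the sources used here, and without it reads from the overlap of both genes cannot be told apart. EWSR1 also has a head-to-head neighbour, RHBDD3, with starts 105 and 287 bases away, which is not in the table; PRMT1, PRMT6 and SERBP1 have none within 1000 bases.

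The 207 bases between both starts are printed because they are the shared upstream region of a listed pair. They come from the RefSeq promoter table, build GRCh38.p14, chr1:111449257-111449463, on the minus strand, reading towards WDR77. Capitals mark the palindrome CTCGCGAG, searched on both strands, which is the core of the element bound by the factor BANP.
WDR77 upstream: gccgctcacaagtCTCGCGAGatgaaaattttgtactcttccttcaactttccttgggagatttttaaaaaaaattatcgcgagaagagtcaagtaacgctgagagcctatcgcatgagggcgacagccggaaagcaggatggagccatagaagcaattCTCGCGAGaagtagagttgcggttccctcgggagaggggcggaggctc
The palindrome occurs 2 times, beginning 194 and 48 bases upstream of WDR77. The 35116 RefSeq promoters of 300 bases come from tested and untested genes alike. Of these, 1.02% hold the palindrome at least 1 time and 0.0627% at least 2 times. An E-box, CACGTG, begins 10 bases downstream of the WDR77 start and is found in 7.26% of promoters. No other member's promoter holds either motif. The motifs were chosen after these promoters were read, and a match is a description of the letters, not a binding site.

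**Figure D3:**
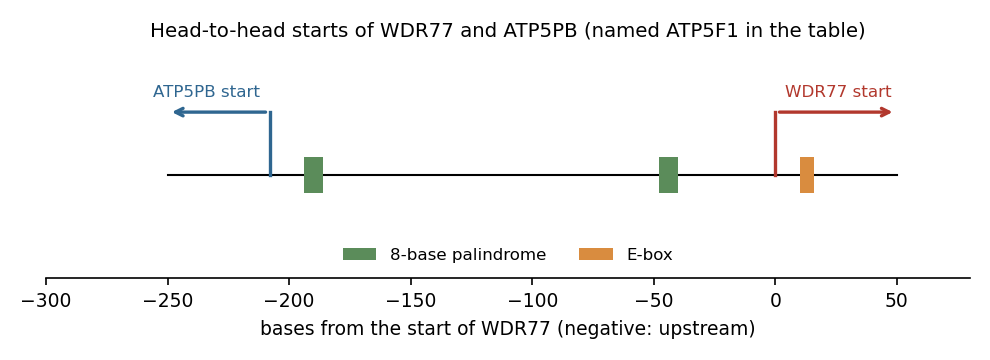
Map of the region between the starts of WDR77 (red arrow, position 0) and ATP5PB (blue arrow), in bases from the WDR77 start, with the 8-base palindrome CTCGCGAG in green and the E-box in orange. The starts are 208 bases apart, with the palindromes at 194 and 48 bases upstream of WDR77.

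PRMT6 and SERBP1, which lie on opposite sides of a ratio of 1, share the letters ACTACAANT upstream of their starts, the beginning of an element known to bind ZNF143. These letters, searched on both strands, are in 1.43% of the RefSeq promoters and in none of the other 3 members. Stretches of 60 bases around them are printed to show this shared sequence, from the RefSeq promoter table on GRCh38.p14: PRMT6 at chr1:107056607-107056666 (plus strand) and SERBP1 at chr1:67430493-67430552 (minus strand). Each reads 5′ to 3′ towards its gene, with the match in capitals.
PRMT6 upstream: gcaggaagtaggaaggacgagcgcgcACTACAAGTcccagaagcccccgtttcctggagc
SERBP1 upstream: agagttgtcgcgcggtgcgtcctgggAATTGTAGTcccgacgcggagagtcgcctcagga
The match begins 41 bases upstream of PRMT6 and, on the other strand, 124 bases upstream of SERBP1. PRMT1 holds the CCAAT box instead, at 156 and 115 bases upstream. Of the RefSeq promoters, 34.6% hold at least 1 match and 10.75% at least 2. All 5 promoters hold more CpG dinucleotides than the median promoter, 21 to 28 in 300 bases against 14. That median is over RefSeq promoters of tested and untested genes alike, so it is no like background for listed genes.

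The RNA-binding members had the smallest differences. EWSR1 stood at 0.911 in the authors' deposited table, with a log2 ratio of −0.13 (p = 0.0460, adjusted p = 0.439). It lay close to the limit of the authors' deposited table, whose largest p is 0.0498. SERBP1 stood at 1.04 in the authors' deposited table, with a log2 ratio of 0.06 (p = 0.0396, adjusted p = 0.432). Of the 858 listed genes 22 had a smaller absolute log2 ratio than SERBP1 in the authors' deposited table, and lowering all log2 ratios by 0.1 would move it to −0.04. EWSR1 stayed on the lower side under that shift in either direction. The nearest coding genes below and above EWSR1 in log2 ratio were TFAM, a mitochondrial DNA-binding protein (−0.14), and the proton pump subunit gene ATP6V1G1 (−0.13) in the authors' deposited table. For SERBP1 these were TXNDC15 (0.06) and the pseudouridine synthase gene TRUB1 (0.06) in the authors' deposited table. SERBP1 has 6 pseudogenes named after it in GENCODE 29 and PRMT1 has 1, so reads may be shared with these copies and the small difference of SERBP1 is uncertain. The EWSR1 locus overlaps RHBDD3 on the other strand, and PRMT1 overlaps ADM5 and an antisense gene; none of these is in the table.

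Among 55 RGG-box RNA-binding proteins, 5 were listed (9.09%), 1 on the lower side and 4 on the higher, beside 11.2% of all tested genes, 6.56% lower and 4.67% higher. EWSR1 and SERBP1 are members chosen for being in the table. Besides EWSR1 and SERBP1 these were NCL, a nucleolar protein of ribosomal RNA processing, at a log2 ratio of 0.26 (p = 0.0403) in the authors' deposited table. FXR1, a relative of the fragile X protein, stood at 0.25 (p = 0.0447) and G3BP1, which nucleates stress granules, at 0.19 (p = 0.0491) in the authors' deposited table. The median of the 5 was 0.19, against −0.12 over all listed genes of the authors' deposited table, and 3 of 5 would be higher with all values lowered by 0.1. TAF15, a relative of EWSR1, and HABP4, the relative of SERBP1, are not in the table.

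The same was counted by coding sequence instead of by list. Of 785 listed coding genes, 9 hold at least 3 RGG triplets (1.15%, against 0.766% of all coding genes), and 7 of these 9 were on the higher side, as were 319 of the 785. At least 2 triplets are in 2.80% of the listed coding genes against 2.48% of all, and at least 5 in 0.510% against 0.190%. All coding genes include untested ones, and which genes were tested is unknown. The shares over all coding genes are therefore no like background, and enrichment was not tested. The median log2 ratio of the 9 was 0.15, against −0.13 over all 785 in the authors' deposited table. With all log2 ratios lowered by 0.1, 5 of 9 would be higher, with SERBP1 and ZSWIM8 changing side. The most triplets after EWSR1 were in HSPG2, the secreted proteoglycan perlecan (10 triplets, log2 ratio 0.31), and NCL (10) in the authors' deposited table. SERBP1 (7) and the ubiquitin ligase gene HERC2 (4 triplets, 0.27) followed in the authors' deposited table. With 3 triplets each, the collagen receptor gene MRC2 (−0.22), the splicing regulator gene RBM10 (0.15), the ubiquitin ligase gene RLIM (0.25) and ZSWIM8 (0.04) were tied in the authors' deposited table. At least 10 arginine-glycine codon pairs were present in 26 listed coding genes (3.31%, against 2.50% of all coding genes), 5 lower and 21 higher, while the 785 were 466 lower and 319 higher. Length moved with these counts: the 9 genes had a median of 994 codons against 419 over the 785, and genes listed higher had 656 against 339 in genes listed lower. The part of length in this split was not tested.

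**Figure D4:**
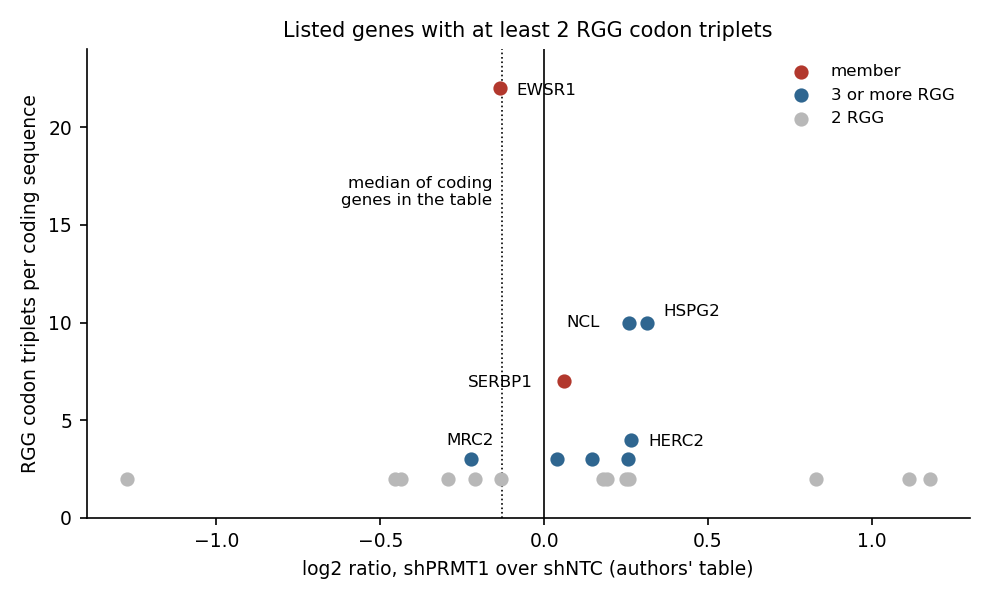
Number of RGG codon triplets (vertical axis) against log2 ratio of shPRMT1 over shNTC (horizontal axis) for the 22 listed genes with at least 2 triplets; members are red, other genes with at least 3 are blue, and the dotted line marks the median of the listed coding genes, −0.13. EWSR1 has the most triplets and lies at that median, while 14 of the 22 genes lie to the right of 0.

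Length by the longest transcript was shorter in the 3 machinery genes than in the RNA-binding members, but not by another transcript choice. The longest GENCODE 29 transcripts of PRMT1, PRMT6 and WDR77 measure 1686, 2715 and 2576 nt, and those of EWSR1 and SERBP1 7285 and 6676 nt. In the transcript with the longest coding sequence the lengths were 1327, 2616 and 2576 nt against 2189 nt for EWSR1 and 3482 nt for SERBP1, so that EWSR1 was shorter than PRMT6 and WDR77. The groups that follow use the longest transcript. The 846 matched genes of the authors' deposited table were split into 5 equal groups by length, and in the shortest, which holds PRMT1, 67.6% were on the lower side. In the next, with PRMT6 and WDR77, it was 76.3%, in the next groups 63.9% and then 47.9%, and in the longest, with EWSR1 and SERBP1, 37.9% in the authors' deposited table, against 58.4% over all its genes. The part of length in the members' directions was not tested.

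Of 19 genes of the methionine and S-adenosylmethionine (methyl donor) cycle, 4 were listed (21.1%), 3 lower and 1 higher. These stand beside 11.2% of all tested genes, 6.56% lower and 4.67% higher, and how many of the 19 were tested is unknown. SLC25A26, the carrier that brings S-adenosylmethionine into mitochondria, had a log2 ratio of −0.64 in the authors' deposited table (p = 0.0157), close in size to PRMT6. MAT2A, which makes S-adenosylmethionine, was the 1 on the higher side, at 0.21 (p = 0.00747) in the authors' deposited table. Spermine synthase (SMS), which draws on decarboxylated S-adenosylmethionine, was at −0.21 (p = 0.0388) in the authors' deposited table. CBS, which takes homocysteine out of the cycle, was at −0.10 (p = 0.00617) in the authors' deposited table. Of these, MAT2A and CBS had p under 0.01, and all 4 had an adjusted p of 0.371 or more in the authors' deposited table.

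The remaining lists of the pathway stand beside the 11.2% of all tested genes that are listed, 6.56% lower and 4.67% higher. Their counts are a description, and WDR77 is a member chosen for being in the table. Of 11 PRMT partners and regulators, WDR77 and CNOT7, a deadenylase that binds PRMT1, were listed (18.2%), with CNOT7 at −0.05 (p = 0.0121) in the authors' deposited table, a value that turns positive when 0.1 is added. The other PRMT5 partners CLNS1A, RIOK1 and COPRS were not in the table. Of 25 further protein substrates of PRMT1, NRIP1, a nuclear receptor corepressor, was listed at 0.05 (p = 0.0408) in the authors' deposited table, negative when 0.1 is taken away. No listed histone gene is in any of the lists, so the list counts leave histones out. Among those left out were the histone H4 genes HIST1H4B and HIST1H4L, at log2 ratios of −0.21 and 0.125 in the authors' deposited table. Listed were 0 of 12 tudor-domain readers of methylarginine, 0 of 9 genes of demethylation, citrullination and dimethylarginine breakdown, 0 of 6 Sm and Cajal body substrates of PRMT5 and 0 of 2 further arginine methyltransferases. Over all lists 14 of 148 genes were in the table, and 9 of 143 (6.29%) without the members, 4 lower and 5 higher, against the 11.2% of tested genes that are listed. How many of these list genes were tested is unknown. Of markers of other cell types, 1 of 10 fibroblast genes (COL1A2, −0.51), 0 of 10 leukocyte genes and 1 of 8 endothelial genes (CDH5, 0.81) were in the authors' deposited table.

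**Figure D5:**
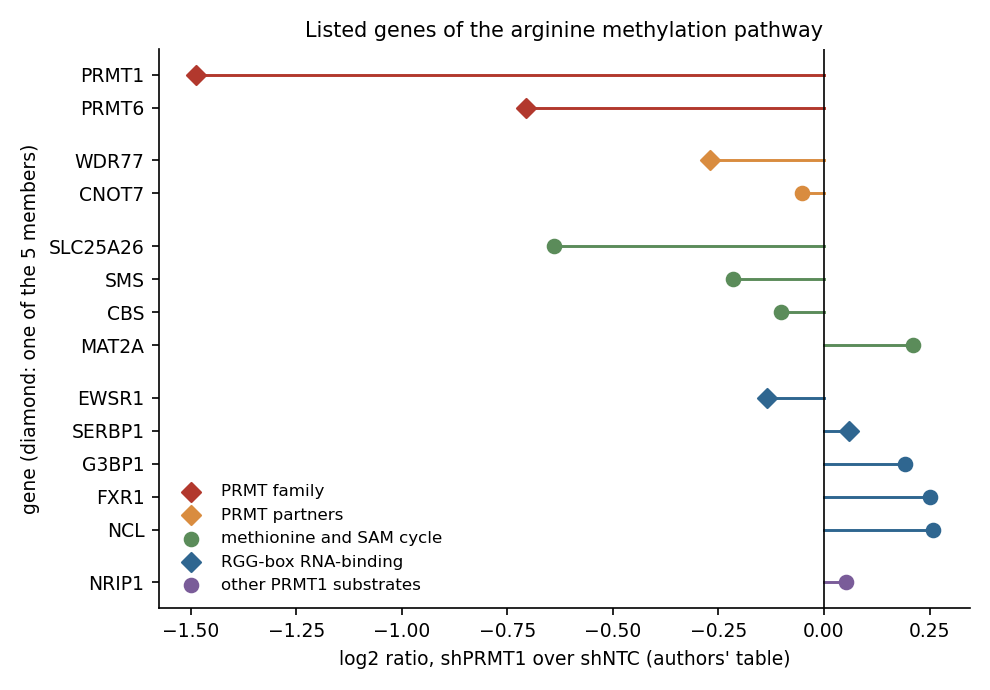
Log2 ratio of shPRMT1 over shNTC (horizontal axis) for the 14 listed genes of the arginine methylation lists, grouped by role and with diamonds for the 5 members. Both PRMTs and WDR77 lie to the left of 0, as do 3 of 4 genes of the methyl donor cycle, and 4 of 5 RGG-box genes lie to the right, SERBP1 only just.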

How the data were processed

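Total RNA sequencing of 2 shPRMT1 and 2 shNTC samples was grouped by the treatment label. The build hg19 and the tools edgeR 3.36.0, StringTie 2.2.1, HISAT2 2.2.1, Trim Galore 0.6.7 and deepTools are named, without roles, per the submitters' processing notes. The authors deposited 1 table with a linear ratio, a log2 ratio, an unadjusted p-value and a q-value (here called adjusted p) per gene. Its test, normalization and filter were not given in the sources used here. No test of samples was run, since the table of the authors' own comparison was the stated contingency of the design. Depth is unknown.

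The members and gene lists were chosen with earlier results of these data known. Named genes were the members, all listed pathway genes, the coding gene next above and next below each member in log2 ratio, and the 6 listed genes with most RGG triplets, given with the genes tied for the last place. Head-to-head neighbours, overlapping genes, list genes absent from the table, marker genes and histone H4 genes were named beyond that rule, after values were seen.

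The number of tests was recovered as adjusted p times rank over p at the end of each run of tied adjusted values, which gave 7640 within 0.01 in 52 of 53 runs. Protein sequences were foreseen but not used here, so RGG triplets were counted in the coding sequence of GENCODE 29 transcripts (GRCh38), matched by Ensembl identifier for 785 genes and for length for 846. Promoters came from RefSeq. A result on 1 further gene and 1 sequence stretch are not reported here. Steps were tested on simulated data. Calculations used Python 3.11.15, numpy 2.4.6, pandas 2.3.3 and matplotlib 3.10.9. Alternatives covered p thresholds, a shift of 0.1, symbol matching and RGG minimums.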

Additional observations from a re-analysis of the deposited data

How the results depend on the processing

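Thresholds set the counts: at unadjusted p under 0.05, 858 genes and 5 members are listed. At p under 0.01 there are 191 genes and 1 member (WDR77), and at an adjusted p under 0.05 there is 1 gene and 0 members. With p under 0.05 and an absolute log2 ratio of at least 1 there are 58 genes and 1 member (PRMT1). Listed genes with at least 3 RGG triplets number 9, with at least 2 number 22, with at least 5 number 4, and with at least 10 arginine-glycine pairs 26. Lowering all log2 ratios by 0.1 moved SERBP1 from 0.06 to −0.04, the 1 reversal among 25 single-gene alternatives for the members. In 13 a threshold was missed, and in 11 the direction was kept under a shift or a threshold was passed. Each alternative checked either the direction or a threshold, not both. The number of tests was 7640, and the run of the largest adjusted p alone gave 7602. The p limit of 0.05 cuts that run short, which makes its value a lower bound. Matching list genes by identifier gave 14 as by symbol.

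No paired analysis was possible because the table holds only the authors' comparison and no values of single samples. For the same reason leaving out replicates, another normalization and a filter on low counts were not run.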
